A study of Homo sapiens with 12 samples.

Results

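H82 is an established human small cell lung cancer line of the NEUROD1 type, and the account below concerns what changed in it when LSD1 was inhibited. Of the 12 libraries in the series, 6 are of H82: 3 grown with ORY-1001 at 1 µM and 3 grown with vehicle, which the labels call PBS. The other 6 libraries are of a second small cell lung cancer line, H211, treated in the same way, and they enter here only for comparison and for a shared estimate of the spread. Both lines are labelled as wild type and as lung, and all libraries were made from oligo(dT)-selected RNA. The label of each sample gives 7 days of treatment and the treatment protocol gives 10, and which applied was not settled. Each group is 1 line, and whether its 3 replicates were separate cultures is not stated; p-values therefore reflect only how far these libraries scatter, part or all of which may be technical. Levels are given in the deposited unit, a rescaled TPM (transcripts scaled by length and library), in which levels can be compared between genes. Of 56508 gene symbols, 15456 reached a value of 1 in at least 3 of the 12 libraries and were tested.

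LSD1, encoded by KDM1A, removes methyl groups from lysine 4 of histone H3 and works in repressive complexes with CoREST, histone deacetylases and zinc finger factors such as GFI1 and INSM1. ORY-1001 is an inhibitor that binds the enzyme covalently through its flavin cofactor. Neuroendocrine small cell lung cancer cells carry neuronal transcription factors, dense-core granules and synaptic vesicle proteins, and low levels of the antigen presentation machinery.

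Libraries of an H82 group correlated at r = 0.9881 to 0.9911 across genes, and treated and control libraries at 0.9715 to 0.9751. Genes are not replicates of one another. The depth of the libraries is unknown, so no counting error can be given. The neuronal factor NEUROD1 lay at 138, 135 and 139 in the controls and 134, 133 and 123 with ORY-1001, and its difference did not pass the test (adjusted p = 0.499). MYC, the transcription factor that H82 carries at a very high level, lay at 1914, 1945 and 1885 in the controls and 1663, 1833 and 1803 with ORY-1001, and did not pass either (adjusted p = 0.0868). Both markers of the labelled type were thus high in all 6 libraries. The transcript of the drug's target, KDM1A, lay at 182, 184 and 187 in the controls and 181, 195 and 195 with ORY-1001, and did not pass (adjusted p = 0.354); an inhibitor of the enzyme need not change its transcript, so this value checks no label.

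In H82, 6643 of 15456 genes passed at an adjusted p under 0.05, which is 43% of those tested. Of these, 2949 were higher with ORY-1001 (19.1%) and 3694 were lower (23.9%). Most changes were small: 206 genes were at least 2-fold higher (1.33%) and 323 at least 2-fold lower (2.09%), on the log2(value + 1) scale, where changes of low genes appear smaller than they are. In H211 the same test passed for 2868 genes (18.6%), 1383 higher (8.95%) and 1485 lower (9.61%). The effects of the 2 lines differed for 4956 genes (32.1%). A gene named below rose or fell only if it passed this test, and its 3 treated values then lay outside the range of its 3 control values unless stated.

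The upstream sequence of 4 genes that fell is shown first, because enzymes of amino acid supply and their stress regulators were lower as a group in treated H82. The capitals mark a match to TGATGNAA, the core of the element that C/EBP and ATF factors such as ATF4 bind, searched on both strands in the 250 bases before each RefSeq start site on GRCh38.p14. The windows read 5′ to 3′ along the gene's strand, and all lie upstream of the RefSeq start used. By the GENCODE positions given elsewhere in this text, the ASNS, CHAC1 and IARS windows lie inside the gene.
ASNS, chr7:97872433-97872512: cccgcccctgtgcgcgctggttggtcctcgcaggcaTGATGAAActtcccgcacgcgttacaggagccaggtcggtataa
CHAC1, chr15:40953226-40953305: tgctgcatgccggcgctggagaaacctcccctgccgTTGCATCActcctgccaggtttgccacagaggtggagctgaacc
AARS, chr16:70289650-70289729: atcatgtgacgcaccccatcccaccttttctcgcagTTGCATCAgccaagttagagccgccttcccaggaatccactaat
IARS, chr9:92293698-92293746: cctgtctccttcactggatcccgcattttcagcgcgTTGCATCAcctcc
ASNS carries the motif in its forward reading and the other windows carry its reverse complement, TTGCATCA. The letters occur in 1104 of 35116 promoters of the same length (3.144%). Over 4 lists pooled (stress response, amino acid synthesis, amino acid transport and tRNA synthetases), 60 members were lower, and 7 of the 46 with a promoter in the table held the motif. Of 18 members that were higher, 16 had a promoter and 0 held it, and of 27 members that did not pass, 20 had a promoter and 3 held it. The share among lower members (15.217%) and among members that did not pass (15%) was thus alike, and a match is a description of letters, not of binding.

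The genes with the largest falls had varied functions. NSG1 (chromosome 4, 4348140 to 4419058), a protein of neuronal endosomes, lay at 146, 146 and 151 in the controls and 8.26, 8.91 and 7.11 with ORY-1001, a 18.2-fold drop (log2 change of -4.04 with an SE of 0.13, adjusted p = 4.33e-09). ASNS (chromosome 7, 97852118 to 97872542), the enzyme that makes asparagine, lay at 618, 658 and 670.2 in the controls and 96.4, 89.3 and 86.1 with ORY-1001, 7.16-fold lower (log2 change of -2.83 with an SE of 0.061, adjusted p = 3.19e-10). PRSS56, a trypsin-like protease, lay at 12.8, 12.4 and 12.3 in the controls and 0.284, 0.285 and 0.244 with ORY-1001. In all 3 the treated libraries agreed closely and sat far under the controls. CPLX3, a complexin that binds the vesicle fusion machinery, lay at 42.7, 42.0 and 42.1 in the controls and 5.80, 5.13 and 5.17 with ORY-1001. MEIS3, a homeobox factor, fell by 13.5-fold between group means, and UNC5C, a netrin receptor, fell by 12.5-fold. CHRM4, a muscarinic acetylcholine receptor, lay at 20.2, 19.4 and 19.7 in the controls and 3.14, 2.87 and 2.86 with ORY-1001. MFAP2, a protein of elastic microfibrils, and PCOLCE, which helps process procollagen, had log2 fold changes of -2.30 and -2.64. CHAC1, which degrades glutathione, lay at 10.1, 10.99 and 12.9 in the controls and 1.60, 1.17 and 1.52 with ORY-1001. The remaining members of the 12 largest falls, the septin pseudogene SEPT14P2 and the small nucleolar RNA SNORD15B, were listed at 0 in all 3 treated libraries and at 7.51, 8.65 and 13.8 and 8.05, 5.97 and 8.10 in the controls. Small nucleolar RNAs are not polyadenylated, and the call of SNORD15B was lost without control replicate 1 (adjusted p = 0.0527) or control replicate 3 (0.0531).

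**Figure D1:**
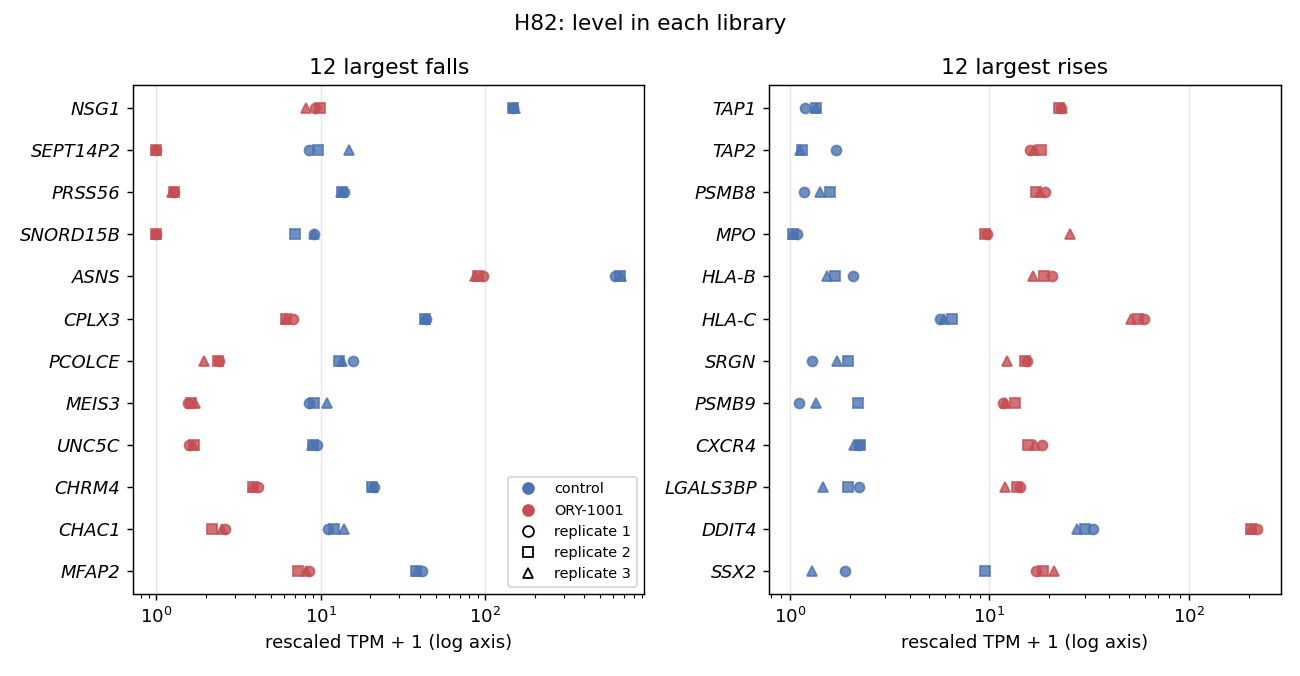
Rescaled TPM plus 1 (log axis) of the 12 genes with the largest falls and the 12 with the largest rises in H82, one point per library, coloured by group and shaped by replicate. The 3 treated libraries of each gene lie apart from the 3 controls; in MPO, treated replicate 3 (24.3) stands above replicates 1 and 2, and in SSX2, control replicate 2 (8.54) stands above the other controls.

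Of the 12 largest rises, 6 were of antigen presentation genes (TAP1, TAP2, PSMB8, PSMB9, HLA-B and HLA-C), 4 of other functions and 2 of blood cells. TAP1 (chromosome 6, 32845209 to 32853978), a subunit of the peptide transporter that loads MHC class I, lay at 0.185, 0.349 and 0.355 in the controls and 21.9, 21.4 and 22.1 with ORY-1001 (log2 change of 4.14 with an SE of 0.079, adjusted p = 1.65e-10). CXCR4 (chromosome 2, 136114349 to 136118165), the receptor of the chemokine CXCL12, lay at 1.21, 1.24 and 1.09 in the controls and 17.4, 14.5 and 15.9 with ORY-1001, 13.5-fold higher (log2 change of 2.96 with an SE of 0.12, adjusted p = 2.29e-08). CXCR4 is also a gene of leukocytes, whose transcripts moved with treatment in these libraries. In H211, where control replicate 1 and ORY-1001 replicate 3 held the same leukocyte transcripts, it lay at 2.04, 2.53 and 2.41 in the H211 controls and 1.40, 1.29 and 2.07 in treated H211. DDIT4 (chromosome 10, 72273920 to 72276036), an inhibitor of mTORC1 that responds to stress and low oxygen, lay at 32.0, 29.2 and 26.6 in the controls and 219.5, 204 and 205 with ORY-1001, 7.16-fold higher (log2 change of 2.80 with an SE of 0.075, adjusted p = 8.94e-10). LGALS3BP, a secreted glycoprotein, lay at 1.20, 0.945 and 0.463 in the controls and 13.3, 12.8 and 10.9 with ORY-1001. SSX2, a cancer-testis antigen, lay at 0.887, 8.54 and 0.291 in the controls and 16.1, 17.6 and 20.01 with ORY-1001, with control replicate 2 far above the other 2 controls. SSX2 has a near-identical copy, SSX2B, and the sum of both went from 9.90 ± 1.17 to 19.4 ± 1.01 (SD, n = 3), 1.96-fold higher, so the level of SSX2 alone is uncertain. MPO and SRGN, products of blood cells, are described with those transcripts at the end.

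Lists of genes with a known function, chosen with earlier results of these data in view, were read against the background of all genes, whose median log2 fold change was -0.0156. Over all genes, 19.1% were higher and 23.9% lower in H82, and 8.95% and 9.61% in H211. The effects of the 2 lines differed for 32.1%. A count near these shares says nothing particular about a list. The bar plot of calls by list shows which lay to each side.

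**Figure D2:**
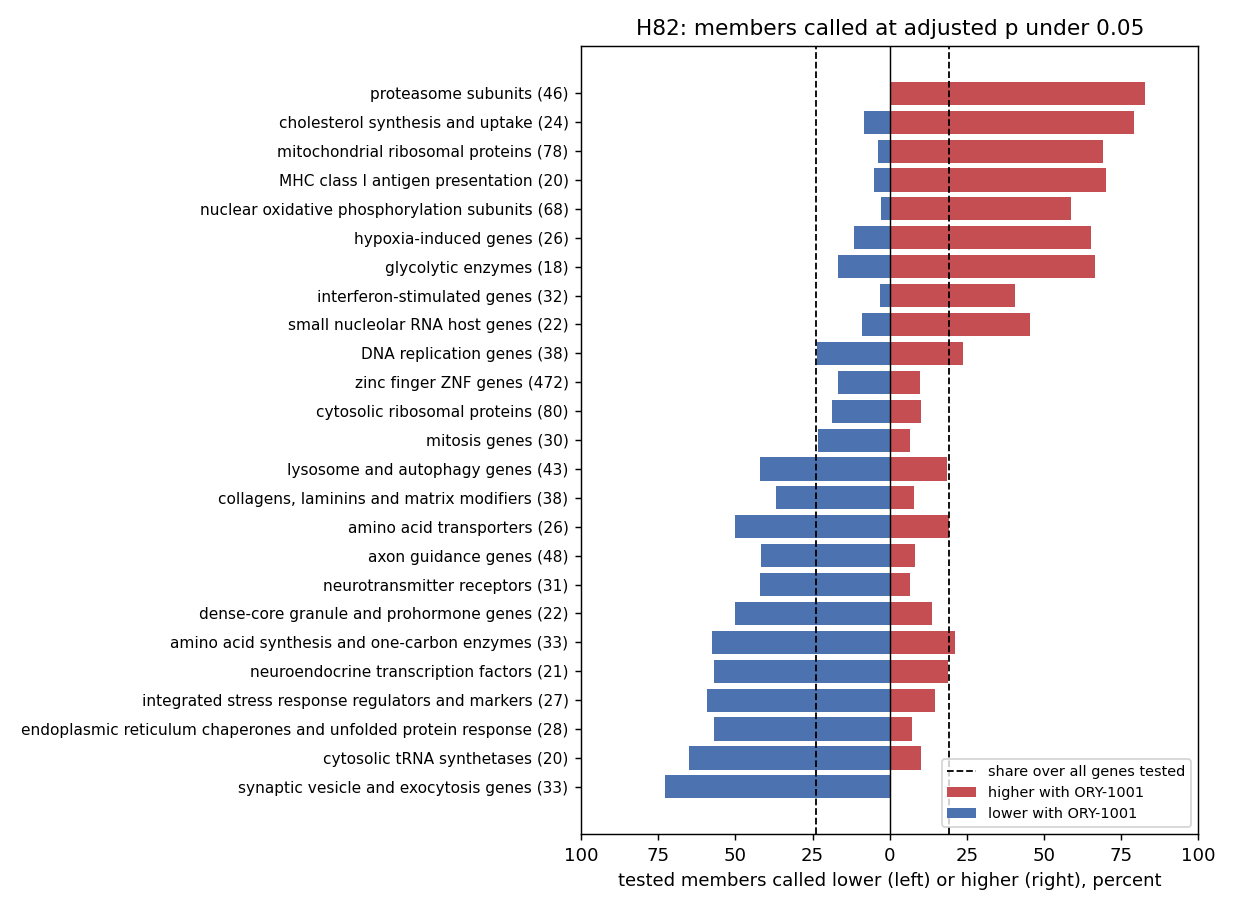
Percent of tested members called higher (right) or lower (left) in treated H82 for 25 lists and families, with the number tested in parentheses. Dashed lines mark the shares over all genes tested, 19.1% higher and 23.9% lower; no synaptic vesicle gene and no proteasome subunit was called in the opposite direction.

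Genes of vesicle release fell together. Of 33 tested synaptic vesicle and exocytosis genes, 24 were lower and 0 higher, with a median log2 fold change of -0.70. Beside NSG1 and CPLX3, SYT1, the calcium sensor of vesicle fusion, lay at 31.7, 30.9 and 31.0 in the controls and 15.7, 16.7 and 16.6 with ORY-1001, and SV2A, a membrane protein of synaptic vesicles, at 24.8, 25.2 and 26.2 in the controls and 15.6, 14.4 and 15.6 with ORY-1001. In H211, 4 of the same genes were lower and 2 higher. The effect differed between the lines for 24 of the 33, against 32.1% of all genes. CPLX1, which acts in vesicle fusion, and STMN2, a regulator of neuronal microtubules, were chosen after their values were seen. CPLX1 lay at 57.9, 58.0 and 59.6 in the controls and 11.3, 16.6 and 15.2 with ORY-1001, and STMN2 at 32.9, 35.2 and 32.2 in the controls and 9.18, 10.00 and 9.60 with ORY-1001. H211 controls held CPLX1 and STMN2 at means of 0.933 and 0.558.

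The dense-core granule and prohormone genes moved less uniformly, with 11 of 22 lower and 3 higher. Without control replicate 1 or 2 or treated replicate 3, 1 was higher. PTPRN, a granule membrane protein, lay at 6.32, 4.94 and 6.39 in the controls and 0.614, 0.349 and 0.470 with ORY-1001, SCG3, a secretogranin, at 40.9, 46.4 and 46.1 in the controls and 19.4, 17.9 and 18.1 with ORY-1001, and CPE, which trims prohormones, at 223, 227 and 210.7 in the controls and 123, 117 and 114 with ORY-1001. Chromogranin A, CHGA, which was chosen after its values were seen, lay at 99.1, 97.2 and 98.0 in the controls and 36.8, 35.9 and 37.5 with ORY-1001 (log2 change of -1.39 with an SE of 0.19, adjusted p = 0.000129). The neuropeptide galanin went the other way, with GAL at 20.8, 16.9 and 18.6 in the controls and 52.99, 43.9 and 51.8 with ORY-1001, 2.64-fold higher. Of 21 neuroendocrine transcription factors, 12 were lower and 4 higher. NEUROD4 and NHLH1, bHLH factors of neuronal differentiation, gave 6.22, 6.54 and 7.12 in the controls and 1.22, 1.21 and 1.39 with ORY-1001 (NEUROD4), then 5.06, 4.73 and 4.41 in the controls and 1.81, 1.61 and 1.84 with ORY-1001 (NHLH1). INSM1, a zinc finger partner of LSD1, lay at 25.7, 24.1 and 21.7 in the controls and 14.5, 16.4 and 17.4 with ORY-1001 and was chosen after its values were seen. HES6, a bHLH factor that promotes neuronal differentiation, was higher, at 247, 232 and 246 in the controls and 398, 374 and 404 with ORY-1001.

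Genes that place neurons and their extracellular surroundings were lower more often than higher. Of 48 axon guidance genes, 20 were lower and 4 higher; after UNC5C, the leading members were SEMA3C, a secreted semaphorin, at 27.1, 30.4 and 25.1 in the controls and 9.93, 9.02 and 8.69 with ORY-1001, EPHA4, an ephrin receptor, at 15.3, 13.3 and 11.98 in the controls and 5.05, 4.78 and 5.33 with ORY-1001, and ROBO2, a Slit receptor, at 27.3, 25.7 and 25.2 in the controls and 13.02, 12.4 and 12.6 with ORY-1001. In H211, SEMA3C rose (log2 fold change 0.65), and the 2 effects differed (adjusted p = 6e-07). Of 38 collagens, laminins and matrix modifiers, 14 were lower and 3 higher. COL9A2, a chain of type IX collagen, fell by 3.72-fold and LAMC1, a laminin chain, by 2.37-fold, while P4HA1, which hydroxylates collagen and is itself induced by low oxygen, rose 1.93-fold. Of 31 neurotransmitter receptors, 13 were lower and 2 higher. CHRNB2, a nicotinic receptor subunit, lay at 5.54, 5.34 and 5.79 in the controls and 2.08, 1.95 and 2.34 with ORY-1001. GLRA1, a glycine receptor subunit, went from 2.51, 2.85 and 2.93 to 0.0578, 0.238 and 0.330, and GABRA5, a GABA receptor subunit, rose from 1.31, 2.33 and 1.52 to 5.99, 7.09 and 7.17.

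**Figure D3:**
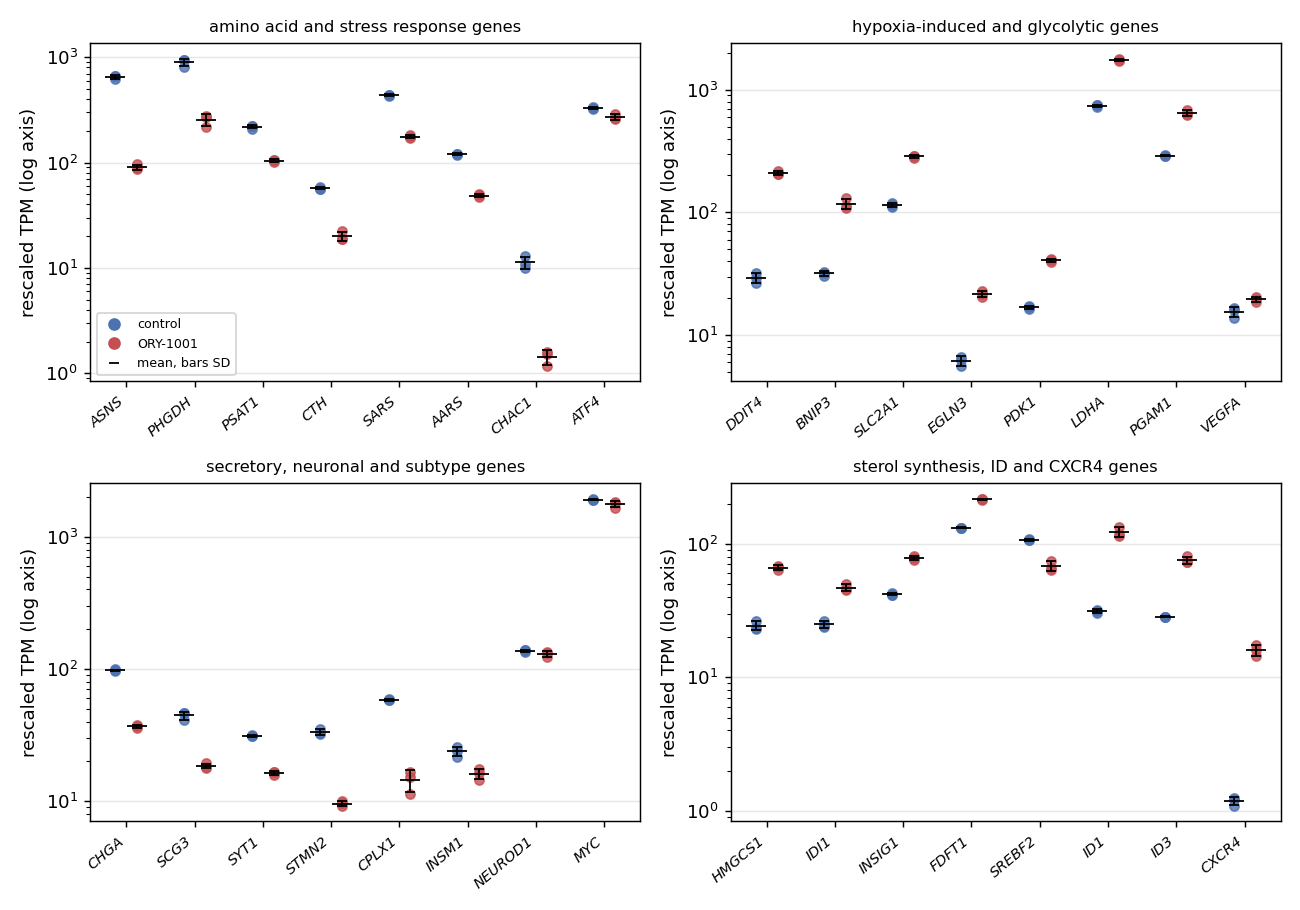
Rescaled TPM (log axis) of 32 genes in H82, one point per library, with the group mean and SD (n = 3) in black. The first panel shows amino acid and stress response genes, of which ASNS went from a mean of 649 to 90.6; in the third panel the treated points of NEUROD1 and MYC lie just under their controls, and neither difference passed.

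Enzymes that make amino acids and the regulators that respond to their lack were lower as a group. Of 33 amino acid synthesis and one-carbon enzymes, 19 were lower and 7 higher. PSAT1, an enzyme of serine synthesis, lay at 210.1, 222 and 223 in the controls and 107, 105 and 101.4 with ORY-1001 (log2 change of -1.06 with an SE of 0.043, adjusted p = 2.5e-08). PHGDH, which starts that pathway and was chosen after its values were seen, lay at 814, 933 and 944 in the controls and 217, 271 and 279 with ORY-1001. MTHFD2 and SHMT2, mitochondrial enzymes of one-carbon metabolism, fell by 1.78-fold and 1.69-fold. In H211 the same list had 15 lower and 1 higher, and ASNS fell there by less (log2 fold change -0.47; the difference between the lines passed at adjusted p = 1.63e-08). PCK2, the mitochondrial form of phosphoenolpyruvate carboxykinase, was chosen after its values were seen and lay at 83.1, 91.9 and 91.5 in the controls and 21.4, 21.4 and 21.3 with ORY-1001.

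Of 27 integrated stress response regulators and markers, 16 were lower and 4 higher, with a median of -0.35. CTH, which makes cysteine from cystathionine, lay at 56.7, 56.2 and 58.6 in the controls and 22.3, 18.7 and 18.7 with ORY-1001. SESN2, a stress-induced inhibitor of mTORC1, lay at 8.37, 7.59 and 7.99 in the controls and 1.52, 1.497 and 1.86 with ORY-1001, and EIF4EBP1, a repressor of translation initiation, fell by 1.56-fold. The transcript of ATF4, the factor that heads this response, fell less, from 336, 329.8 and 321 to 292, 259.5 and 268 (log2 fold change -0.27), and DDIT3, which it induces, lay at 14.6, 15.9 and 15.3 in the controls and 7.35, 5.26 and 6.26 with ORY-1001; ATF4 and DDIT3 were chosen after their values were seen. The list also holds DDIT4, which rose. Of 26 amino acid transporters, 13 were lower and 5 higher (3 higher without control replicate 1). SLC7A11, the cystine transporter, lay at 7.72, 7.41 and 7.34 in the controls and 1.60, 1.37 and 1.56 with ORY-1001, SLC7A3, a transporter of basic amino acids, at 3.33, 4.48 and 4.45 in the controls and 0.281, 0.299 and 0.345 with ORY-1001, and SLC1A5, a glutamine transporter, at 217, 231 and 237 in the controls and 118, 114 and 119 with ORY-1001.

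The cytosolic tRNA synthetases, which charge tRNAs, had 13 of 20 members lower and 2 higher, with a median of -0.42. The serine enzyme SARS lay at 428, 441 and 439 in the controls and 183, 171 and 176 with ORY-1001 and the alanine enzyme AARS at 118, 121 and 122 in the controls and 47.0, 50.05 and 48.8 with ORY-1001. CARS, the cysteine enzyme, fell by 2.44-fold and IARS, the isoleucine enzyme, by 1.65-fold. In H211, 7 of the 20 were lower. Of 28 genes of the endoplasmic reticulum and its unfolded protein response, 16 were lower and 2 higher. XBP1, a transcription factor of that response, lay at 79.8, 84.5 and 88.8 in the controls and 28.5, 30.8 and 29.004 with ORY-1001, and DNAJB9, a chaperone it induces, at 44.1, 48.8 and 46.5 in the controls and 16.5, 18.3 and 15.6 with ORY-1001. HSPA5, the main chaperone of the compartment, fell by 1.80-fold in H82 and rose slightly in H211 (log2 fold change 0.17).

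Genes induced by low oxygen were higher. Of 26 hypoxia-induced genes, 17 were higher and 3 lower, with a median of 0.90. EGLN3, an oxygen-sensing hydroxylase, lay at 6.31, 6.68 and 5.58 in the controls and 22.8, 21.7 and 20.6 with ORY-1001 (log2 change of 1.66 with an SE of 0.063, adjusted p = 1.29e-08). SLC2A1, the glucose transporter GLUT1, lay at 115, 111 and 118 in the controls and 289, 279 and 289.9 with ORY-1001, and AK4, an adenylate kinase of mitochondria, at 73.2, 72.2 and 71.7 in the controls and 185, 179 and 175 with ORY-1001. BNIP3, a mediator of mitophagy, BHLHE40, a bHLH repressor, and PFKFB3, a regulator of glycolysis, were chosen after their values were seen. BNIP3 went from 32.8, 32.4 and 30.3 to 130.4, 109 and 113, BHLHE40 from 2.10, 1.28 and 1.55 to 12.3, 13.3 and 12.9 and PFKFB3 from 8.94, 7.55 and 7.85 to 23.8, 26.4 and 28.0. In each of the 3 the lowest treated library was above 2 times the highest control. VEGFA, a growth factor for vessels, rose 1.26-fold, and the hypoxia markers NDRG1 and CA9 did not pass, all 3 likewise chosen after their values were seen. NDRG1 gave 106, 107 and 95.5 in controls against 89.2, 102 and 98.6 in treated libraries, and CA9 0.278, 0.106 and 0.215 against 0.347, 0.264 and 0.210, with overlapping groups. The host transcript of miR-210, MIR210HG, lay at 0.353, 0.627 and 0.434 in the controls and 8.34, 9.61 and 7.15 with ORY-1001. In H211 the list went the other way, with 1 higher, 13 lower and a median of -0.22. The effect differed for 20 of the 26, against 32.1% of all genes.

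Of 18 glycolytic enzymes, 12 were higher and 3 lower, with a median of 0.46. LDHA, which makes lactate, lay at 723, 747 and 748 in the controls and 1787, 1764 and 1722 with ORY-1001, 2.38-fold higher, and PGAM1, a phosphoglycerate mutase, at 287, 296 and 290.2 in the controls and 686, 639 and 623 with ORY-1001, 2.23-fold higher. PKM, pyruvate kinase, and ENO1, enolase, were among the most abundant transcripts and rose 1.72-fold and 1.69-fold. SLC16A3, a lactate exporter, was the solute carrier with the largest rise, at 4.42, 5.12 and 4.52 in the controls and 20.3, 25.1 and 23.0 with ORY-1001.

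**Figure D4:**
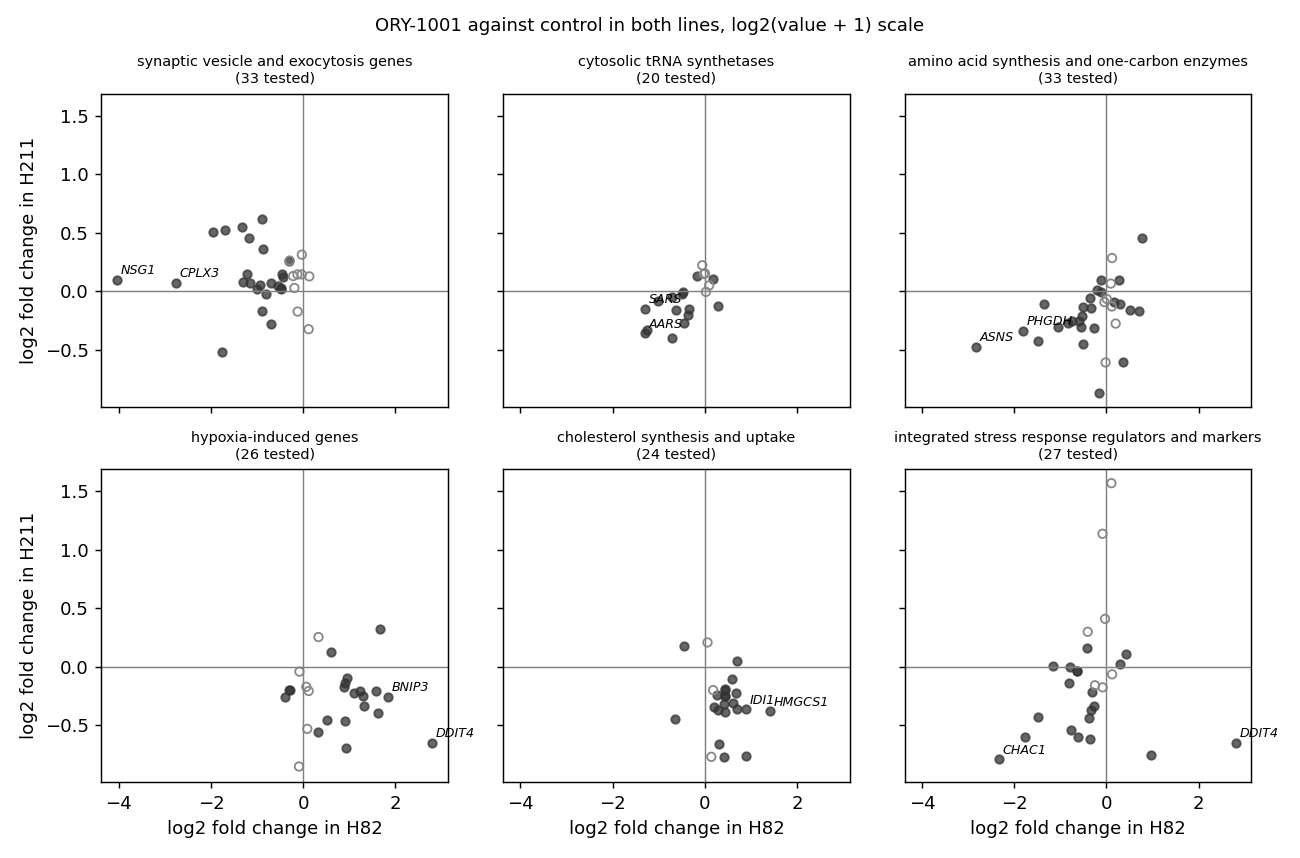
Log2 fold changes of the members of 6 lists in H82 (x axis) and H211 (y axis); filled points were called in H82 and open ones were not. Hypoxia-induced and cholesterol genes lie mostly right of zero in H82 and under zero in H211, while synaptic genes lie mostly left of zero in H82 and on both sides of zero in H211; the 2 axes have different scales.

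Sterol synthesis was higher in H82 and lower in H211. Of 24 genes of cholesterol synthesis and uptake, 19 were higher and 2 lower in H82, with a median of 0.43, against 0 higher and 17 lower in H211 and a median of -0.32. The effect differed for 22 of the 24, against 32.1% of all genes. HMGCS1, which makes the precursor of mevalonate, lay at 26.4, 23.6 and 23.1 in the controls and 67.3, 63.6 and 68.3 with ORY-1001 (log2 change of 1.41 with an SE of 0.056, adjusted p = 2.02e-08). FDFT1, squalene synthase, lay at 132, 132 and 130.3 in the controls and 217, 215 and 211.1 with ORY-1001, IDI1, an isomerase of isoprenoid synthesis, at 26.6, 24.2 and 24.0 in the controls and 50.2, 45.6 and 45.1 with ORY-1001, and INSIG1, which restrains the pathway, at 41.7, 41.5 and 43.1 in the controls and 81.1, 75.9 and 78.5 with ORY-1001. SREBF2, which drives these genes and was chosen after its values were seen, was lower in both lines, at 107, 109 and 106 in the controls and 63.7, 66.3 and 74.8 with ORY-1001 in H82. Of 25 genes of fatty acid synthesis and desaturation, 8 were higher (32.0%) and 6 lower (24.0%), against 19.1% and 23.9% of all genes. Without treated replicate 2, 5 were higher and 7 lower. SCD, a desaturase, rose in H82 (log2 fold change 0.43) and fell in H211 (-0.93). APOE, a lipid carrier, fell from 25.8, 24.6 and 23.7 to 4.30, 4.68 and 4.84 in H82 and rose in H211 (log2 fold change 1.40).

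Genes of mitochondrial protein synthesis, of oxidative phosphorylation and of the proteasome were higher by small amounts over most members. Of 78 mitochondrial ribosomal proteins, 54 were higher and 3 lower, with a median of 0.26. MRPL35 had the largest rise, at 26.8, 26.3 and 28.98 in the controls and 56.7, 52.7 and 50.4 with ORY-1001, while MRPS14 was lower, at 57.1, 60.4 and 57.8 in the controls and 54.4, 49.2 and 49.8 with ORY-1001. Of 68 nuclear oxidative phosphorylation subunits, 40 were higher and 2 lower (4 lower without treated replicate 1); ATP5MC1, a subunit of ATP synthase, lay at 449.8, 505 and 505 in the controls and 858, 767 and 821 with ORY-1001. The 13 genes encoded in mitochondria did not follow, with 0 higher and 1 lower, MT-CYB, at 3070.4, 2254 and 2417 in the controls and 1764, 2146 and 1316 with ORY-1001, whose call was lost without any 1 of the 3 controls or of treated replicates 1 and 3 (adjusted p = 0.0517 to 0.175). Mitochondrial transcripts took 7.40 to 9.67% of the total in controls and 5.204 to 8.10% with ORY-1001, ranges that overlap. Of 46 proteasome subunits, 38 were higher and 0 lower, with a median of 0.35; the list includes the immunoproteasome subunits PSMB8 and PSMB9, which rose most. In H211, 19 of the 46 were higher and 0 lower.

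Among secreted factors and signalling pathways, several single genes moved by more than 2-fold. MDK (chromosome 11, 46380756 to 46383837), the growth factor midkine, lay at 181, 171 and 166 in the controls and 41.2, 37.1 and 37.4 with ORY-1001 in H82 (log2 change of -2.13 with an SE of 0.049, adjusted p = 4.14e-10) and its log2 fold change in H211 was 0.044 (adjusted p = 0.59); the lines differed (adjusted p = 7.57e-09). ID1 and ID3, inhibitors of bHLH factors and targets of BMP signalling, rose from 30.1, 32.1 and 31.5 to 134, 119 and 115 and from 28.3, 28.5 and 28.5 to 80.8, 73.1 and 72.6, while ID4 fell from 6.16, 5.73 and 6.17 to 1.91, 1.82 and 1.76. In H211, ID1, ID3 and ID4 all rose. INHBE, an activin subunit, lay at 28.8, 30.3 and 32.6 in the controls and 8.15, 7.41 and 8.18 with ORY-1001. DLL1, a Notch ligand, rose from 0.663, 0.706 and 1.03 to 5.17, 4.34 and 4.44, while DLL3, the ligand typical of neuroendocrine cells, fell from 133, 126 and 131 to 91.1, 91.0 and 91.8. Over the Notch pathway, 9 of 29 genes were higher (31.0%) and 7 lower (24.1%), against 19.1% and 23.9% of all genes. The lower share was thus that of all genes. Without ORY-1001 replicate 2, 5 Notch genes were higher. In the WNT pathway, 13 of 37 genes were lower (35.1%) and 2 higher (5.4%). The receptor gene FZD2 lay at 18.9, 18.0 and 18.7 in the controls and 7.70, 7.58 and 8.13 with ORY-1001. FZD1 lay at 41.0, 41.2 and 41.5 in the controls and 21.2, 21.5 and 21.7 with ORY-1001. DDR2, a collagen receptor kinase, fell from 12.3, 13.4 and 11.4 to 3.23, 3.23 and 2.41. SNAI1, a repressor that recruits LSD1, rose from 18.9, 18.4 and 17.2 to 46.0, 48.0 and 45.2, and GADD45G, a growth arrest gene, from 10.1, 8.72 and 11.5 to 34.2, 31.9 and 34.1. The GTPase RAB17 rose from 0.153, 0.117 and 0.0899 to 6.32, 5.61 and 6.19.

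Antigen presentation and interferon-stimulated genes are summarised mainly by their counts in both lines. Of 20 MHC class I antigen presentation genes, 14 were higher and 1 lower in H82, and 16 were higher in H211. Of 32 interferon-stimulated genes, 13 were higher and 1 lower in H82 and 18 did not pass, while 25 were higher and 1 lower in H211. USP18, a protease that removes ISG15, lay at 2.03, 2.05 and 2.40 in the controls and 14.6, 13.3 and 13.996 with ORY-1001. Separate levels of HLA genes are uncertain, because their sequences are alike and how reads were divided between them is not known.

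Some larger groups had members on both sides; over all genes, 19.1% were higher and 23.9% lower. Of 30 mitosis genes, 7 were lower and 2 higher (23.3% and 6.7%), with a median of -0.062; TOP2A lay at 211.4, 204 and 200.5 in the controls and 147, 142 and 144 with ORY-1001. Of 38 replication genes, 9 were higher and 9 lower (23.7% each); the licensing factor gene CDT1 fell from 100.8, 94.6 and 102 to 39.8, 44.1 and 46.9. Of 80 cytosolic ribosomal proteins, 8 were higher and 15 lower (10.0% and 18.8%; 5 higher without treated replicate 1), and the median of -0.0127 turned positive with quantile normalization (0.0121), without ORY-1001 replicate 2 (0.0145) and without replicate 3 (0.0392). Of 472 zinc finger ZNF genes, 46 were higher and 80 lower (9.7% and 16.9%). Of 26 immediate early genes, 5 were higher and 4 lower in H82 (19.2% and 15.4%) against 19 and 1 in H211. Without treated replicate 2, 3 immediate early genes were higher in H82, and without control replicate 2 or treated replicate 1 or 3, 2 were lower. JUN fell from 8.57, 8.22 and 7.93 to 4.58, 4.53 and 4.70 in H82 and rose in H211 (log2 fold change 2.82).

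Transcripts of blood cells varied between libraries. Of 120 genes on 7 lists of blood cell markers, 34 were tested. Of these 34, 8 were called higher and 1 lower (CORO1A, an actin-binding protein), against 19.1% and 23.9% of all genes. The count of higher genes is thus near the share of all genes. Beside the genes below, LST1 (adjusted p = 0.00285) and LCP1 (0.0392) were called higher, both chosen after their values were seen. LST1 was listed at 0 in all H82 controls and at 1.81, 2.20 and 1.45 with ORY-1001. In H211 it lay at 0.850, 2.40 and 0.254 in the controls and 1.19, 0.309 and 1.40 with ORY-1001. Neutrophil granule genes summed to 1.07, 0.968 and 1.37 in the H82 controls and to 19.7, 19.2 and 34.5 with ORY-1001. MPO, the peroxidase of neutrophil granules, lay at 0.0849, 0.0377 and 0.0284 in the controls and 8.71, 8.55 and 24.3 with ORY-1001, and its call was lost without treated replicate 3 (adjusted p = 0.0515). PRG2 and PRTN3, other granule proteins, were listed at 0 in all controls and at 3.91, 4.06 and 4.37 and 2.02, 1.66 and 1.38 in treated libraries; the call of PRTN3 was lost without any 1 of the 3 controls or of treated replicates 1 and 2 (adjusted p = 0.0623 to 0.0785). SRGN, a proteoglycan of blood cell granules, lay at 0.285, 0.960 and 0.711 in the controls and 14.4, 14.1 and 11.2 with ORY-1001, and AIF1, a macrophage protein, at 0, 0.491 and 0 in the controls and 2.51, 3.97 and 2.72 with ORY-1001, with its call lost without treated replicate 2 (adjusted p = 0.0504). ARHGDIB, a GTPase regulator of leukocytes, lay at 0.844, 0.258 and 0.340 in the controls and 5.39, 6.28 and 3.12 with ORY-1001, and its call was lost without control replicate 2 or 3 (adjusted p = 0.0832 and 0.0771) or treated replicate 1 or 2 (0.0792 and 0.0893). PRG2, PRTN3 and AIF1 were chosen after their values were seen. LYZ, lysozyme, was at 15.98, 18.7 and 0.583 in the treated libraries and did not pass (adjusted p = 0.135), but passed without treated replicate 3 (0.0413). With treated replicates 1 and 2 left out together, which leaves 1 treated library assumed to vary like the other groups, the calls of MPO, PRG2, PRTN3, SRGN, AIF1 and ARHGDIB were all lost (adjusted p = 0.0548 to 0.318; 0.147 for SRGN). The calls of PRTN3 and ARHGDIB were also lost with no filter on low values (adjusted p = 0.0703 and 0.0794). Many defining markers were near 0: 21 of 26 neutrophil genes and 13 of 21 monocyte genes stayed under 1 in all 6 H82 libraries.

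Globins went the other way between treated libraries. Red cell genes summed to 126.6, 135 and 125 in the controls, to 79.6 and 67.4 in treated replicates 1 and 2 and to 283 in treated replicate 3. These sums include HBQ1, which was at 49.9 or more in every H82 library. They thus understate how far HBE1 and HBG2 lay under the controls in treated replicates 1 and 2. HBE1, an embryonic globin, lay at 14.7, 18.5 and 16.5 in the controls and 2.08, 1.95 and 88.1 with ORY-1001, and HBG2, a fetal globin, at 23.9, 28.2 and 22.4 in the controls and 0, 0.120 and 53.02 with ORY-1001; neither passed (adjusted p = 0.629 and 0.16). Without treated replicate 3, HBG2 passed as lower (adjusted p = 0.00629), and 5 of the 9 tested red cell genes were lower, against 0 with all libraries. HBQ1, another globin gene, lay at 51.7, 49.9 and 54.4 in the controls and 69.0, 60.5 and 55.9 with ORY-1001 and did not pass (adjusted p = 0.249), though it passed when only the 6 H82 libraries were fitted (0.0386).

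**Figure D5:**
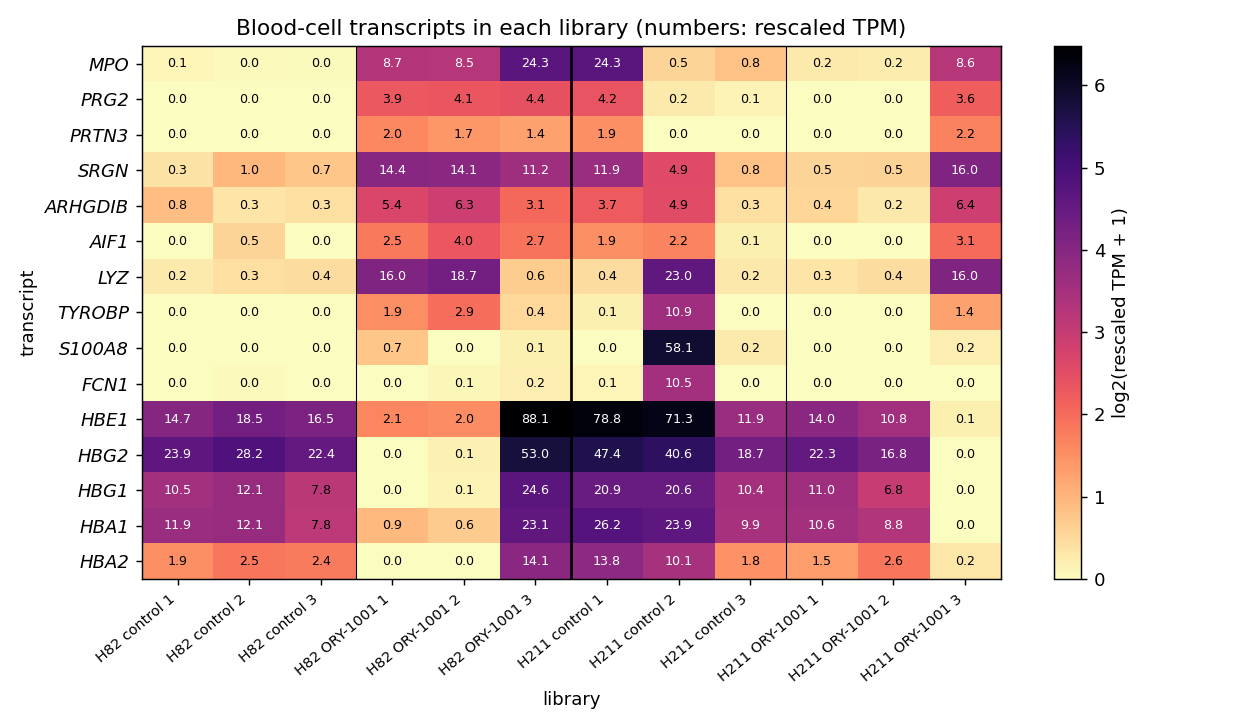
Rescaled TPM (printed) of 15 blood-cell transcripts in each of 12 libraries, coloured by log2(value + 1). Treated H82 replicates 1 and 2 hold LYZ (15.98 and 18.7) and almost no HBG2, treated replicate 3 holds MPO (24.3) and HBE1 (88.1), and H211 ORY-1001 replicate 3 and H211 control replicate 1 show the same 2 patterns.

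The same profiles appeared in single libraries of H211, whatever their treatment. H211 ORY-1001 replicate 3 carried MPO at 8.57, LYZ at 16.05 and SRGN at 15.98, as H82 treated replicates 1 and 2 did, and H211 control replicate 1 carried MPO at 24.3 and HBE1 at 78.8, as H82 treated replicate 3 did. HBG2 was listed at 0 in H211 ORY-1001 replicate 3. H211 control replicate 2 differed again, with LYZ at 23.0 and the neutrophil protein S100A8 at 58.1. Its globins were high too, with HBE1 at 71.3 and HBG2 at 40.6. The remaining 3 H211 libraries held MPO at 0.758 or less. In them HBG2 lay at 18.7 (control replicate 3), 22.3 and 16.8 (ORY-1001 replicates 1 and 2). The H82 controls held HBG2 at 22.4 to 28.2. The source of the globin transcripts was not tested in either line. A split of the H211 libraries was chosen after the blood-cell values were seen. It set control replicate 1 and ORY-1001 replicate 3 against control replicate 3 and ORY-1001 replicates 1 and 2. Blood transcripts among the genes that follow it were thus given by the choice. Of the tested genes, 12 differed across the split by at least 2-fold on the value + 1 scale. Of these 12, 6 were called in H82, against 43% of all genes tested. All 6 rose and all are on a blood list: SRGN, ARHGDIB, MPO, AIF1, PRG2 and PRTN3. In H82 these transcripts were above 1 in every treated library and under 1 in every control, so in H82 alone they cannot be told apart from an effect of treatment, and their source was not tested. No other gene described above is among the 12. LYZ, HBE1 and HBG2 are absent as well, so absence from the 12 is no test of a blood-cell source.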

How the data were processed

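Messenger RNA of 6 H82 and 6 H211 libraries was measured, in 4 groups of 3 taken from the sample labels. Per the labels' protocols, poly(A) RNA went into NEBNext Ultra II libraries for paired-end HiSeq sequencing, with bcl2fastq 2.17 for demultiplexing. Tools named, per the submitters' processing notes, include sleuth 0.30.0, Salmon 1.1.0, DESeq2, Subread 1.5.2, featureCounts, STAR 2.5.2b and Trimmomatic 0.36, beside R 4.0.4 and the hg38 build. Their roles, and the step that made the table, are not given in the sources read. The values the authors deposited are a signal per gene symbol, TPM that appears rescaled between libraries, since column totals run from 967415 to 1111988. Read counts were not analysed here, so depth is unknown. The tests were planned for TPM and were used unchanged on this rescaled TPM. Another 27 rows carried dates for symbols; 21 were tested and none is named.

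Values were tested as log2(value + 1) with limma 3.58.1 (trended eBayes, R 4.3.3) over all 12 libraries with 4 group means, after keeping genes at 1 or more in at least 3 libraries. Two-sided p-values were adjusted by Benjamini-Hochberg across 15456 genes and called under 0.05. The fit was checked on simulated data. The members and gene lists were chosen with earlier results of these data known. The rule named the 12 largest rises and 12 largest falls among called, non-overlapping genes whose higher H82 group averaged 5 or more, up to 4 called members with the smallest p of a list, the called members of each symbol family that rose and fell most, up to 3 transcripts per blood list, and 6 genes of interest; genes outside it are marked as chosen after their values were seen. A few named items are not reported here. Same-numbered control and treated libraries did not deviate together (r = 0.0449, -0.035 and -0.0225), so their numbers were not used to pair them. Alternatives changed the pseudocount, filter, scaling, variance prior, weights, libraries and replicate block. Positions are from GENCODE 29 on GRCh38, and upstream sequences from RefSeq.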

Additional observations from a re-analysis of the deposited data

Results flagged for a closer look

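Of the 24 genes with the largest changes in H82, 23 passed the test of a difference from H211 (limma, adjusted p 6.57e-09 to 0.039). Over all genes tested, the share was 32.1%. The 24 were picked by the same H82 values that enter this test, so a high share was favoured by the choice. HLA-B did not pass (adjusted p = 0.409). Its difference was -1.09 with an SE of 0.93. HLA-B lay at 1.69, 16.1 and 0.406 in the H211 controls, with control replicate 2 far above the others. Values in parentheses are the log2 fold change in H82 minus that in H211. Among the falls in H82, the difference was negative for SNORD15B (-4.60), SEPT14P2 (-4.31), NSG1 (-4.13), PRSS56 (-3.38), CPLX3 (-2.84), CHRM4 (-2.66), MEIS3 (-2.60), ASNS (-2.35), UNC5C (-2.32), PCOLCE (-2.12), MFAP2 (-2.11) and CHAC1 (-1.55). SEPT14P2 and SNORD15B were listed at 0 in all treated H82 libraries. Among the rises, PSMB9 (-3.74), PSMB8 (-1.98), LGALS3BP (-1.41), HLA-C (-1.06) and TAP1 (-0.45) rose in both lines and rose more in H211. The rises that were larger in H82 were MPO (4.42), SRGN (3.73), DDIT4 (3.45), CXCR4 (3.33), SSX2 (3.14) and TAP2 (2.15). MPO and SRGN were also high in single H211 libraries of both groups. The level of SSX2 alone is uncertain, and its sum with SSX2B rose 1.96-fold in H82.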

How the results depend on the processing

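The number of genes called ran from 4237 to 6843 over the alternatives, against 6643. It was lowest with treated H82 replicates 1 and 2 left out together, which leaves 1 treated library, assumed to vary like the other groups (1887 higher and 2350 lower). Leaving out 1 H82 library at a time gave 5728 to 6012 calls, 2503 to 2667 higher and 3129 to 3391 lower, with 189 to 212 at least 2-fold higher and 295 to 364 at least 2-fold lower. Counts of at least 2-fold changes moved with the offset added before the logarithm, to 452 higher and 658 lower with a pseudocount of 0.1 and 63 and 98 with a pseudocount of 5; a filter of 5 in 3 libraries, which tests fewer genes, gave 134 higher. Quantile normalization gave 3296 higher and 3304 lower, and the median over all genes stayed within 0.1 of 0 under every scaling. The fit with the replicate number as a block, where numbers are shared but do not pair the samples, called 6219 genes (2802 higher and 3417 lower), 5956 of them among the 6643; the blood transcripts SRGN, AIF1, PRTN3 and ARHGDIB were not called in it (adjusted p = 0.0508, 0.0512, 0.0601 and 0.0919). Not every sample correlated best with its own number. Another alternative, chosen after the blood transcripts were seen, left out 4 libraries that hold them (H82 ORY-1001 3, H211 control 1 and 2, H211 ORY-1001 3). In it 5726 genes were called. H82 ORY-1001 1 and 2 were kept, though their MPO, LYZ and SRGN lay near those of H211 ORY-1001 3. That fit is therefore not free of the blood transcripts. KDM1A, which passed under none of the alternatives, changed sign with quantile normalization (-0.043). Without treated replicates 1 and 2, HBE1 and HBG2 turned positive (2.35 and 1.07), as replicate 3 holds the highest globin values. Unknown depth limits every low value.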

Other observations

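Of 20 heat shock genes, 10 were higher (50.0%) and 6 lower (30.0%), against 19.1% and 23.9% of all genes. HSPE1, a mitochondrial co-chaperone, rose from 964, 978 and 987 to 1714, 1584 and 1596, and HSP90AA1 from 362, 368 and 373 to 584, 589 and 649. The inducible HSPA1A fell from 59.0, 55.3 and 61.1 to 32.7, 37.5 and 36.2. Of 43 lysosome and autophagy genes, 18 were lower (41.9%) and 8 higher (18.6%). The protease gene CTSB fell from 62.3, 65.1 and 66.5 to 36.3, 34.8 and 35.6. Of 9 metallothioneins, which bind zinc and copper, 2 were higher and 1 lower (22.2% and 11.1%, against 19.1% and 23.9% of all genes). MT1F fell from 1.13, 0.810 and 1.00 to 0.571, 0.164 and 0.329 (not called with a pseudocount of 5, adjusted p = 0.123), while MT1X and MT2A rose from 63.2, 61.1 and 61.7 to 142, 132 and 120.3 and from 9.71, 10.1 and 8.41 to 21.8, 18.3 and 21.6. Of 45 histone lysine methylation and demethylation enzymes, 18 were lower and 7 higher, and NSD2, a methyltransferase of lysine 36, fell from 102, 95.3 and 97.2 to 48.4, 62.6 and 57.8.

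TUBB3, the neuronal tubulin, fell from 96.2, 103 and 95.8 to 49.1, 53.5 and 51.6 in H82 and rose in H211 (log2 fold change 0.76). Of 22 small nucleolar RNA host genes, 10 were higher and 2 lower, led by SNHG12, from 12.5, 6.46 and 9.51 to 36.8, 31.9 and 30.1. The initiation factor gene EIF5 rose from 65.4, 63.9 and 56.3 to 169, 166 and 168, while EIF1 fell from 1020.1, 1029 and 1058 to 603, 580.5 and 549.

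Some rows differed by 10-fold or more between libraries of the same H82 group, with the offset of the tests added to each value. There were 37 such rows in the controls and 64 with ORY-1001, none of the latter called. Of the treated rows, 37 carry symbols of small RNAs and 6 are on a blood list, against 25 and 0 in the controls. The offset shrinks ratios of low values. These counts therefore leave out low rows, some on a blood list, that differ by as much without it.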
